A study of Mus musculus with 2 samples.

Results

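The genes described are those of the mitochondrial ribosomal proteins, chosen by symbol: every gene whose symbol in the array annotation begins with Mrpl or Mrps followed by a digit. The rule gave 76 of the 18193 genes that had a named probe set, 47 with large subunit symbols (Mrpl) and 29 with small subunit symbols (Mrps). Probe sets annotated to more than 1 gene were left out, so Mrpl30 and Mrpl53 are not among the 76. No measured value enters that rule, but the group was singled out with earlier results of these arrays known, so every value is a description and none is tested. The data were 1 array of WT and 1 array of Foxj3 KO skeletal myoblasts of the mouse, the proliferating precursors of muscle fibres. Foxj3 encodes a forkhead transcription factor. Both cultures had been passaged 3 times, were kept in DMEM with 20% fetal bovine serum and antibiotics, and were harvested at 80% confluency. The labels do not give the Foxj3 allele, the number of animals behind a culture or whether a culture was a clone. With 1 array per genotype there is no replicate check of any difference, and a difference between genotypes cannot be told apart from one between cultures.

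The mitochondrial ribosome translates the few messages of mitochondrial DNA, which encode membrane subunits of the respiratory chain and ATP synthase. Its ribosomal RNAs come from mitochondrial DNA, whereas all its proteins are encoded in the nucleus, made on cytosolic ribosomes and imported. The small subunit binds the message and houses the decoding site, and the large subunit joins amino acids and feeds the new chain to the inner membrane. Some of its proteins have a counterpart in the bacterial ribosome and others were added during the evolution of mitochondria. Mitochondrial content increases when myoblasts differentiate into muscle fibres.

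The signal of a probe set, in arbitrary units, was used as deposited, and signals under 47.04, the 40th percentile of all values pooled, were treated as not detected (the floor). Median signals over all 45037 probe sets were 62.03 (WT) and 63.94 (KO). Of the Foxj3 probe sets, one read 495.51 in WT and 77.28 in KO (log2 ratio -2.68, always KO over WT), another read 79.74 and 99.4, and the last was under the floor on both arrays. All 6 myoblast markers were measured, with summed signals of 4945 in WT and 4886 in KO. They differed in direction: Myod1 read 631.27 and 1750.95 (1.47), whereas 4 of the 6 were below 0, with Des at -0.89, and the median was -0.28. All 7 markers of differentiated muscle had a log2 ratio below 0, with summed signals of 26950 in WT and 5485 in KO and a median log2 ratio of -2.17. Summed fibroblast markers were 938.1 and 1064 (4 of 5 measured), endothelial markers 162.1 and 196.3 (2 of 3), and macrophage markers 352.2 and 266.6 (1 of 3, with Ptprc and Cd68 under the floor on both arrays). The WT culture thus gave more signal for differentiated muscle, and the part of this difference in the values below was not tested. In bulk RNA, fewer cells of a type and less RNA per cell cannot be told apart.

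Messages of mitochondrial ribosomal proteins were, for the most part, modestly lower in the KO library. All 76 genes were over the floor on both arrays. Each gene was represented by its brightest probe set, and 61 of the 76 (80.3%) had a lower KO than WT signal, beside 53.7% of all 14597 measured genes. The 76 genes had a median log2 ratio of -0.36 (1.28-fold lower, SD over genes 0.41), beside a median of -0.06 over all measured genes. Few of the differences were large: 4 of the 76 (5.26%) were at least 2-fold lower in KO, beside 6.72% of all measured genes, and none was at least 2-fold higher, beside 3.73%. The share of members at 2-fold lower was thus no greater than the background share. A reference closer in signal was formed by the 4299 other genes whose mean signal lay between 210.0 and 772.2, the 10th and 90th percentile of the members. Among those, 59.1% had a log2 ratio below 0, with a median of -0.13, 5.98% were at least 2-fold lower in KO and 3.28% at least 2-fold higher.

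The small subunit genes were lower in the KO library in 26 of 29 cases (89.7%), with a median log2 ratio of -0.47 (1.39-fold lower, SD over genes 0.42, range -1.16 to 0.52). Only Mrps25 and Mrps34 were at least 2-fold lower (6.9% of the 29) and none was 2-fold higher. At a threshold of 1.5-fold, 11 of 29 (37.9%) were lower in KO and none higher, beside 19.3% and 12.8% of all measured genes and 21.0% and 10.5% of the genes in the same signal range.

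Mrps25, a protein added in mitochondria, had the lowest ratio: 241.57 in WT and 108.06 in KO (2.24-fold lower). A dimmer Mrps25 probe set read 59.87 and 54.51, near the floor on both arrays. Mrps34, another mitochondria-specific protein, variants of which cause an inherited defect of mitochondrial translation, read 450.49 in WT and 212.6 in KO (2.12-fold lower). A second Mrps34 probe set, annotated to Nme3 as well, read 125.85 and 111.19 and was not used to name the gene. Mrps26, also without bacterial counterpart, read 547.86 in WT and 284.2 in KO (log2 ratio -0.95). Mrps35, of the same kind, read 460.67 and 258.68 (-0.83). Mrps23, again without bacterial counterpart, read 212.74 and 173.98 by its brightest probe set, and 2 of its 3 measured probe sets were below 0.

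Proteins of the small subunit that descend from the bacterial ribosome were likewise mostly lower in KO. Mrps12 lies at the decoding centre, and its signal was 424.43 in WT and 258.1 in KO (1.64-fold lower). Mrps7, a protein of the head of the subunit, read 291.85 and 189.24 (1.54-fold lower). Mrps6 read 619.48 and 349.35 (log2 ratio -0.83), and its second probe set read 349.62 and 272.98. Mrps10 read 519.14 and 311.25 (-0.74), and 55.77 and 50.41 (-0.15) by a dimmer probe set near the floor. Mrps24 read 389.22 and 263.49 (-0.56), and its other probe set 466.46 and 157.06 (-1.57), so both pointed the same way with a different size. Mrps5 read 196.79 and 106.02 (-0.89) by its brightest probe set, but of its 5 measured probe sets 2 were below 0 and 3 above. Mrps9 (661.18 and 514.02) had 3 of 4 measured probe sets below 0, and Mrps15 (503.32 and 426.57) had 2 of 3.

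The lower KO signal did not extend to every small subunit gene. Mrps16 and Mrps22, which are mutated in inherited defects of mitochondrial translation, were close to equal on both arrays, with 348.01 and 318.12 for Mrps16 and 520.02 and 466.44 for Mrps22 (1.09-fold and 1.12-fold lower in KO). The log2 ratio of Mrps16 was -0.13, and 0.01 with loess scaling. Mrps2 read 366.0 in WT and 343.58 in KO, and Mrps11 123.09 and 115.56 (log2 ratio -0.09 each). The other measured Mrps2 probe set was under the floor in WT (25.22) and over it in KO (94.35), opposite in direction, and the sign of Mrps2 turned with quantile (0.03) and loess scaling (0.04) and the mean over probe sets (0.46). Only Mrps33 (509.41 in WT, 567.33 in KO), Mrps14 (536.62 and 748.6) and Mrps18a (356.91 and 511.1) had higher KO signals. The second measured probe set of Mrps14 went the other way, from 178.45 in WT to 110.98 in KO.

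The symbol Mrps18 covers 3 homologues of 1 bacterial protein, and they did not share a direction. Mrps18b (507.23 in WT, 267.95 in KO, log2 ratio -0.92) and Mrps18c (518.04 and 313.57, -0.72) were lower in KO, whereas Mrps18a was 1.43-fold higher. Ribosome structures place Mrps18b and Mrps18c in the small subunit and Mrps18a in the large one. They also place Mrps30 in the large subunit, and its signal was 407.35 in WT and 316.11 in KO (-0.37). Mrps36, which carries a ribosomal symbol but is now known as a component of the 2-oxoglutarate dehydrogenase complex, read 489.23 and 326.39 (-0.58).

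**Figure D1:**
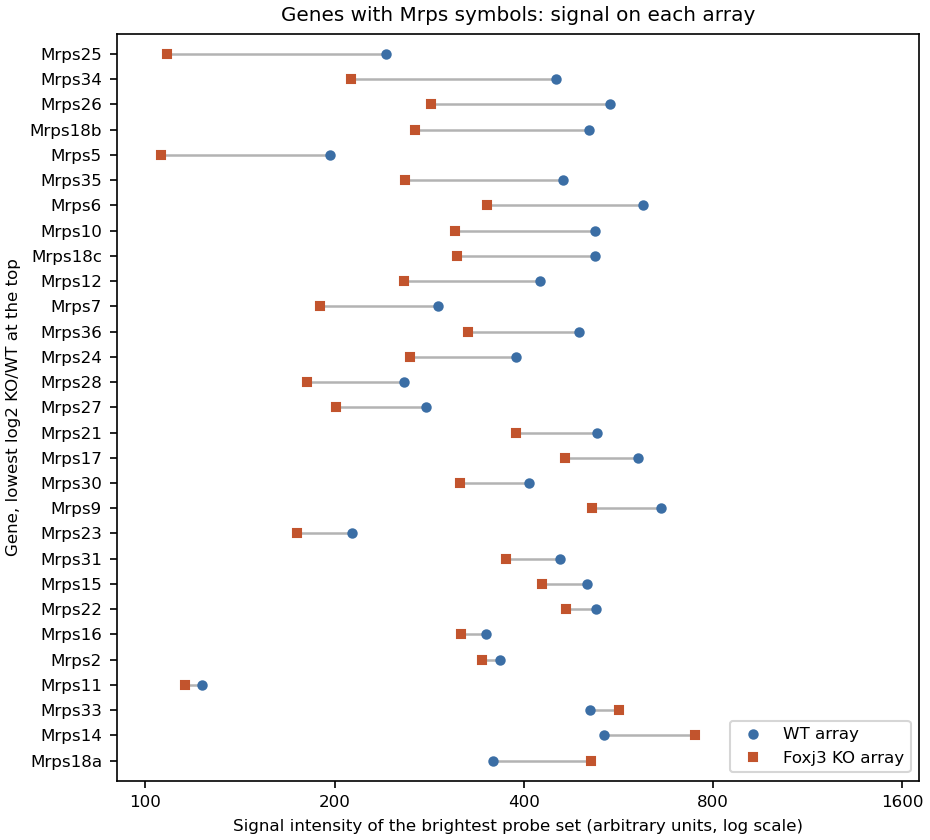
Signal of the brightest probe set of each of the 29 Mrps genes (arbitrary units, log axis) on the WT array (circles) and the Foxj3 KO array (squares), 1 array each, ordered by log2 ratio. The KO square lies to the left of the WT circle in 26 genes, and Mrps33, Mrps14 and Mrps18a at the bottom have the opposite order.

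The large subunit genes were lower in the KO library in 35 of 47 cases (74.5%), with a median log2 ratio of -0.28 (1.21-fold lower, SD over genes 0.39, range -1.10 to 0.88). Mrpl44 and Mrpl48 were at least 2-fold lower (4.26% of the 47) and none was 2-fold higher. At 1.5-fold, 12 of 47 (25.5%) were lower in KO, beside the 19.3% and 21.0% of both backgrounds, and only Mrpl50 (2.13%) was higher.

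Mrpl44, a large subunit protein of the ribonuclease III family whose variants cause infantile cardiomyopathy, had the lowest ratio of the large subunit. It read 439.3 in WT and 204.55 in KO (2.15-fold lower). A dimmer probe set read 324.82 and 205.53 and the dimmest measured one 182.66 and 142.13, so all 3 were lower in KO. Mrpl48 read 295.54 and 146.17 (2.02-fold lower), with another probe set at 195.25 and 146.4, but the dimmest went from 91.89 in WT to 265.73 in KO (log2 ratio 1.53). Mrpl28 was lower by all 3 of its probe sets, with 851.99 and 451.3 by the brightest (-0.92), 771.31 and 485.96, and 438.98 and 308.73. The direction of Mrpl48 therefore depends on the probe set read, unlike that of Mrpl44 and Mrpl28. The size differed between probe sets in those genes too, from -1.10 to -0.36 for Mrpl44 and from -0.92 to -0.51 for Mrpl28.

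Mrpl12 forms the stalk that recruits translation factors, and its only probe set read 861.28 in WT and 534.52 in KO (1.61-fold lower). Mrpl11, at the base of the stalk, read 625.48 and 397.37 (1.57-fold lower), with 3 of 4 measured probe sets below 0. Mrpl10, which anchors Mrpl12 to the ribosome, read slightly higher in KO by its only probe set, with 307.36 and 354.06 (log2 ratio 0.20). That ratio is smaller in size than the spread of single probe sets given below (SD 0.63), as are those of most members, in either direction. The direction of such single genes, Mrpl10 among them, is therefore not fixed by these arrays. Mrpl41 read 601.67 and 358.78 (-0.75), Mrpl47 512.88 and 310.75 (-0.72) and Mrpl51 1116.92 and 681.75 (-0.71). The second measured probe set of Mrpl41 had a smaller difference, with 415.31 and 351.25 (-0.24). Mrpl52 read 1459.78 and 1171.89 (-0.32), and all 4 of its probe sets were below 0.

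Of the core proteins near the peptidyl transferase site, Mrpl3 was close to equal (791.23 in WT, 748.51 in KO, 1.06-fold lower), and Mrpl2 read 742.59 and 815.95 (log2 ratio 0.14, and -0.04 with quantile scaling). Mrpl50, the member with the highest ratio, read 110.11 in WT and 202.26 in KO (1.84-fold higher), but its other probe set read 149.02 and 133.14. Mrpl42 was 1.32-fold higher in KO (455.32 and 600.69) and Mrpl17 1.14-fold higher (513.07 and 587.09). Mrpl15 had the most probe sets, 8, of which 5 were measured: the brightest read 853.84 in WT and 535.6 in KO (-0.67), and the other 4 were all above 0. Of the other large subunit genes with at least 3 measured probe sets, Mrpl13 read 1014.75 and 724.21 by the brightest (3 of 4 below 0). Mrpl1 (212.64 and 130.76), Mrpl19 (336.78 and 219.44), Mrpl21 (420.65 and 309.99) and Mrpl38 (403.22 and 318.71) were lower in KO by the brightest probe set and higher by the other 2. Mrpl9 read 206.49 and 222.05, with 1 of 3 probe sets below 0. Mrpl51, lower in KO by its brightest probe set, had others at -0.19 and 0.41, and Mrpl17, higher by its brightest, had others at -0.58 and 1.34.

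**Figure D2:**
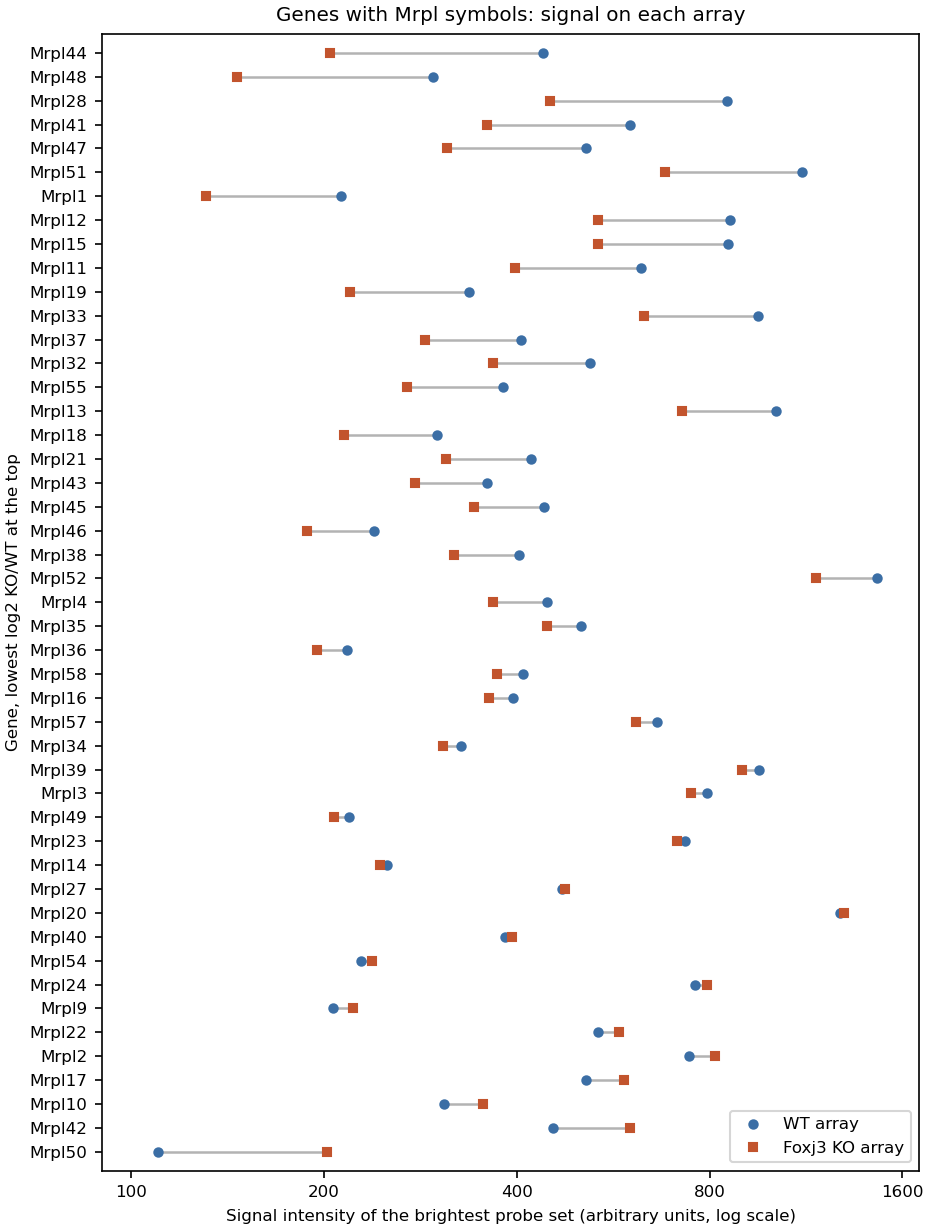
Signal of the brightest probe set of each of the 47 Mrpl genes (arbitrary units, log axis) on the WT array (circles) and the Foxj3 KO array (squares), 1 array each, ordered by log2 ratio. The upper 35 genes have the lower signal in KO, and the 12 at the bottom, ending with Mrpl50, have the higher one.

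The large subunit median lay 0.20 log2 units above the small subunit median; with 1 array per genotype this difference has no replicate check. With Mrps18a and Mrps30 moved to the large subunit and Mrps36 left out, as the structures have it, the difference was 0.22 (medians of -0.28 over 49 genes and -0.49 over 26). Against the genes of the same signal range, the large subunit median was lower by a difference of -0.14 and the small subunit median by -0.34. The distributions differed in their tails as well as their centres: the SD of 0.39 and 0.42 over the members compares with 0.61 over the genes in the same signal range.

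**Figure D3:**
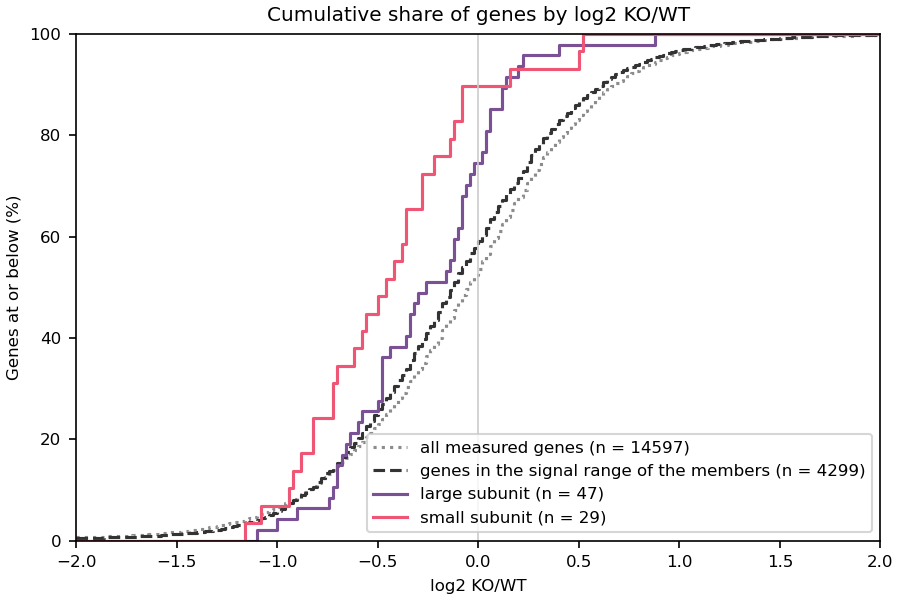
Cumulative share of genes (%) at or below each log2 ratio of KO over WT, for all 14597 measured genes, the 4299 genes in the signal range of the members, the 47 Mrpl and the 29 Mrps genes; the axis ends at -2 and 2. Both member curves stand left of the background curves around 0, where 89.7% of the Mrps and 74.5% of the Mrpl genes are below 0. Towards lower ratios the curves come together, and the Mrpl curve runs below both background curves left of about -0.7.

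Median ratios differed with signal level, among the members and in the background. At mean log2 signals of 8 to 9, the medians were -0.37 over 20 large subunit genes and -0.57 over 18 small subunit genes, beside -0.17 over 2545 other genes. At 9 to 10, they were -0.09 over 15 large and -0.10 over 4 small subunit genes, beside 0.07 over 1051 others. At 7 to 8, they were -0.12 over 10 large and -0.57 over 6 small subunit genes, beside -0.16 over 3820 others, so the large subunit did not stand below the background in that range. The part of signal level in the members' values was not tested.

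Grouped by descent, the 46 members with a bacterial counterpart had a median log2 ratio of -0.37 and the 29 without one -0.35. By the brightest probe set, all 4 genes at least 2-fold lower in KO (Mrpl44, Mrpl48, Mrps25 and Mrps34) belonged to those without a counterpart. They were 13.8% of the 29, beside 6.72% of all measured genes. The mean over measured probe sets took Mrpl44 (-0.71), Mrps25 (-0.65) and Mrpl48 (0.03) out of this count. That mean brought in Mrps24 (-1.07), which has a bacterial counterpart. A count this small sets the classes apart in no way that was tested. In the large subunit the medians were -0.17 (28 genes with a counterpart) and -0.34 (19 without). In the small subunit they were -0.47 (18 genes) and -0.42 (10 genes), so the order was opposite. The classes were assigned after the values were seen.

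The members had 156 probe sets, of which 139 were measured and 17 were under the floor on both arrays. Of the 36 members with at least 2 measured probe sets, 15 (41.7%) were lower in KO by all of them, 1 (Mrpl27, 2.78%) was higher by all, and 20 (55.6%) were mixed. Over all 6251 such genes of the array, 20.7% were lower by all, 19.2% higher by all and 60.1% mixed. Probe sets of 1 gene gave log2 ratios with an SD of 0.63 per probe set over 3047 genes, a spread that applies to single probe sets and leaves out the spread between cultures. Across the 36 members, the ratio of the brightest and of the second probe set had a Pearson r of -0.06, a description over genes that share both arrays, and 22 had the same sign. The size of the difference in a single member is therefore poorly fixed by these arrays, and in the 20 mixed members so is its direction.

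The probe sets that were not the brightest were nearer 0, with medians of -0.11 over 44 (large) and -0.17 over 19 (small), beside 0.03 over 10460 of all genes. Of the 44, 23 (52.3%) were below 0, and of the 19, 12 (63.2%), beside 47.4% of the 10460. A limit of signals over 100 on both arrays was set after the values were seen. Among the not-brightest probe sets over it, the medians were -0.35 over 24 (18 below 0) and -0.36 over 9 (7 below 0). The 3551 such probe sets of all genes had a median of 0.00, with 49.7% below 0. Probe sets with names ending in _s_at or _x_at, which can pick up related transcripts, had members' medians of -0.67 (8 probe sets) and -0.55 (14), beside -0.15 and -0.23 over all probe sets of those kinds. The plain kind ending in _at had -0.16 (86 probe sets), beside 0.01 over all. Probe sets shared with another gene read 315.67 and 249.1 (Mrpl53 with Ccdc142), and 1097.66 and 1255.39, and 988.24 and 989.72 (Mrpl30 with Gm6238).

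**Figure D4:**
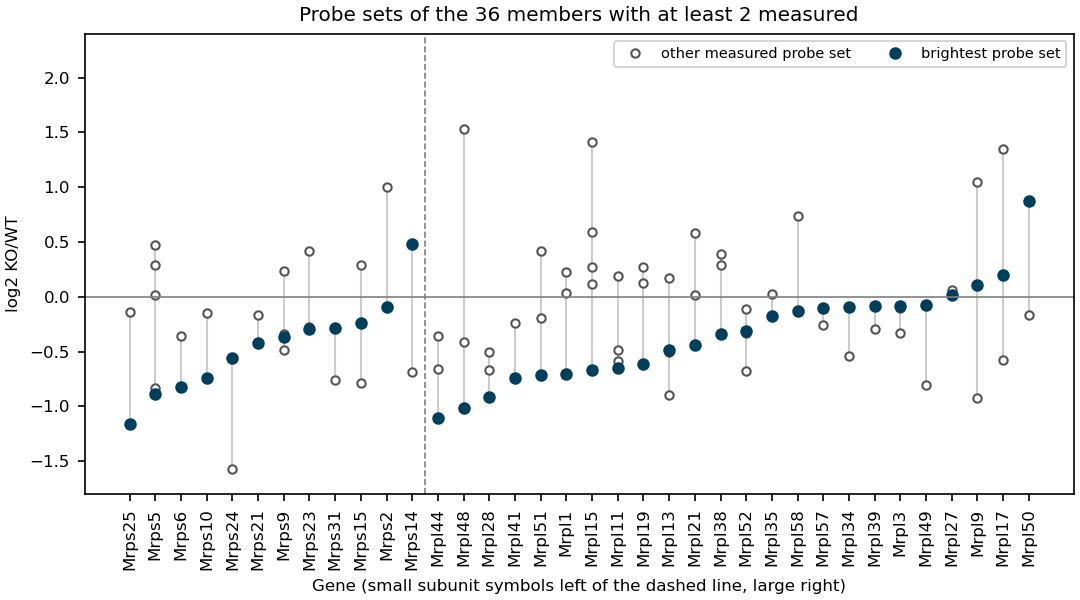
Log2 ratio of KO over WT of each measured probe set of the 36 members with at least 2; filled points are the brightest probe set, open points the others, and grey lines join the probe sets of 1 gene. Probe sets of Mrpl44, Mrpl28 and Mrps24 stay below 0, whereas those of Mrpl48, Mrpl15, Mrps5, Mrps14 and Mrpl50 lie on both sides.

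Promoters of nuclear genes for mitochondrial proteins often hold sites for nuclear respiratory factor 1 (NRF1), for the ETS family, which includes the GA-binding protein, and for YY1. RefSeq promoter sequences (GRCm38.p6, 250 bases before to 50 after the start) were at hand for 67 of the 76 members and were searched on both strands. The NRF1 motif (GCGCA, 1 free base and GCGC) occurred in 12 members (17.9%), beside 9.97% of 11624 measured genes and 5.19% of all 27025 genes. The ETS motif CCGGAAG occurred in 25 (37.3%), beside 17.3% and 9.93%, and the YY1 motif (AAGATGG followed by CGGC) in 5 (7.46%), beside 1.54% and 0.755%. The forkhead motif GTAAACA, of the type bound by forkhead factors, occurred in 2 members, Mrpl40 and Mrpl44 (2.99%), beside 3.16% and 4.05%. None of the 4 motifs contains another, but the end of the ETS motif and the start of the YY1 motif can share the letters AAG. At least 1 of the first 3 motifs was in 36 members (53.7%), beside 26.0% of measured genes, at a median GC content of 58.3%, below that of measured genes. Median log2 ratios of members with and without a motif were -0.36 and -0.32 for NRF1, -0.32 and -0.35 for ETS, -0.18 (5 genes) and -0.35 for YY1, and -0.53 (2 genes) and -0.35 for forkhead. A match is a description of letters and not a bound site.

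The 250 bases before the start of the gene are given for the members with the lowest ratio of each subunit (Mrpl44 and Mrps25), for Mrps26 and for Mrps18a, the small subunit symbol with the highest ratio. Capitals mark a motif match: forkhead and NRF1 in Mrpl44, the latter beginning 35 bases before the start, and ETS in Mrps26 (on the opposite strand) and Mrps18a. Matches that cross or follow the start are not shown.
Mrpl44 (chr1:79775768-79776017, plus strand): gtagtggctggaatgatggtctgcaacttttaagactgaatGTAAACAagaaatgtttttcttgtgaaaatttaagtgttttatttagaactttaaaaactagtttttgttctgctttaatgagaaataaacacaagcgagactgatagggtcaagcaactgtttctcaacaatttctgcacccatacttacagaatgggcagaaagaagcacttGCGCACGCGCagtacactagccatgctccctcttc
Mrps25 (chr6:92184024-92184273, minus strand): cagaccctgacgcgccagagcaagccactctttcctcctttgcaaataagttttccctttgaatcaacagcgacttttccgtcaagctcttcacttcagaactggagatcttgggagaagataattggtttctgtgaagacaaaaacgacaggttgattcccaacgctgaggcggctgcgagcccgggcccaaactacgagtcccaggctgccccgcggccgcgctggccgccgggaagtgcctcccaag
Mrps26 (chr2:130563507-130563756, plus strand): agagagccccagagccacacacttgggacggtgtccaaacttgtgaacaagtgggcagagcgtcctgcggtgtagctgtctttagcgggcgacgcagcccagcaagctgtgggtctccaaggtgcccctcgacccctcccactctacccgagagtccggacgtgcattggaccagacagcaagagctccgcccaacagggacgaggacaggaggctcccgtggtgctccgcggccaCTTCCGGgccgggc
Mrps18a (chr17:46110754-46111003, plus strand): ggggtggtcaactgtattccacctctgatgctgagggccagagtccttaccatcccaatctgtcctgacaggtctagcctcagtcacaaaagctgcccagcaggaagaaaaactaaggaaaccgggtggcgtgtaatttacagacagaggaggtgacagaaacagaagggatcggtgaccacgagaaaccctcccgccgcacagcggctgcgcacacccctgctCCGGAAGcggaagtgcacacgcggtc

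Many members are transcribed head to head with a neighbour. In 23 of the 67 members with a promoter sequence (34.3%), another gene started on the opposite strand within 1000 bases, beside 11.5% of 11026 measured genes. Of the 22 measured partners, 15 had a log2 ratio below 0, beside 53.7% of all measured genes, and the partners' median was -0.25. None of the partners was 2-fold different, beside 6.72% lower and 3.73% higher of all measured genes. In 14 pairs both genes were below 0, with the pair of Mrpl46 and Mrps11 counted from both sides. Since 80.3% of all members were below 0 by themselves, this count does not show a shared direction within pairs, which was not tested. Mrpl43 (359.67 in WT, 277.78 in KO) lies 116 bases from Twnk, the helicase of mitochondrial DNA, which read 206.11 and 125.29 (-0.72). Mrpl47 lies 308 bases from Ndufb5, a subunit of complex I of the respiratory chain, which read 1398.1 and 981.39 (-0.51). Mrpl51 lies 614 bases from Ncapd2, a condensin subunit, which read 388.63 and 224.64 (-0.79). Opposite directions occurred too, and Mrpl50 and Mrps5 are examples by their brightest probe sets, which their other probe sets did not all share. Mrpl50 was higher in KO and its partner Zfp189, 93 bases away, read 81.23 and 62.16 (-0.39). Mrps5 was lower in KO and its partner Zfp661, 332 bases away, read 59.03 and 93.36 (0.66). Mrpl46 of the large subunit (239.43 in WT, 187.99 in KO, -0.35) and Mrps11 of the small one start back to back, and the 41 bases between their starts, shown because they lie between 1 gene of each subunit, are read here on the minus strand towards Mrpl46.
Mrpl46 and Mrps11 (chr7:78783090-78783130, minus strand): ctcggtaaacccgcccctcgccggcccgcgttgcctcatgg

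Factors that build the mitochondrial ribosome had values like those of its proteins, with larger single differences. Of 27 measured assembly factors (28 listed), 22 (81.5%) were below 0, beside 53.7% of all measured genes, and the median log2 ratio was -0.39. At 2-fold, 7 (25.9%) were lower in KO and 1 higher, beside 6.72% and 3.73%. Fastkd2, an RNA-binding protein needed for the large ribosomal RNA, read 415.14 in WT and 149.54 in KO (2.78-fold lower), with its other probe sets at log2 ratios of -1.38, -1.19 and 0.14. Nsun4, a methyltransferase of the ribosomal RNA that also acts in joining the subunits, read 303.47 and 123.0 (2.47-fold lower), and its partner Mterf4 154.18 and 63.98 (2.41-fold lower). Mettl15 (150.69 and 62.39), Mrm2 (116.69 and 52.38) and Tfb1m (126.85 and 61.93), which also methylate mitochondrial ribosomal RNA, and the helicase Ddx28 (145.98 and 66.52) were lower by log2 ratios of -1.27, -1.16, -1.03 and -1.13. Gtpbp10, a GTPase of large subunit assembly, went the other way with 154.95 and 379.3 (2.45-fold higher), and by 0.23 on the log2 scale in its second probe set. The KO signals of Mettl15, Mterf4, Mrm2, Ddx28 and Tfb1m lay between 52.38 and 66.52, not far over the floor.

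The ribosomal proteins without an Mrp symbol, Gadd45gip1, Chchd1, Dap3 and Ptcd3, had a median of -0.24 over 4 genes. Gadd45gip1, in the large subunit, read 479.09 in WT and 211.06 in KO (2.27-fold lower, with a second probe set at -0.46), and Dap3, in the small one, 651.54 and 607.76 (log2 ratio -0.10). Of 11 translation factors 7 were below 0 (63.6%, beside 53.7% of all measured genes), with a median of -0.19. At 2-fold, 1 was lower (9.09%, beside 6.72%), the release factor Mtrf1l at 165.53 and 70.74 (-1.23), and 1 was higher. Guf1, an elongation factor, was under the floor in WT and read 123.63 in KO, at least 2.63-fold higher by this probe set, whereas another had a log2 ratio of -1.08. Of 21 aminoacyl-tRNA synthetases and amidotransferase subunits 14 were below 0 (66.7%, beside 53.7%; median -0.16) and 4 at least 2-fold lower (19.0%, beside 6.72%), among which Yars2, which charges the tyrosine tRNA, read 308.42 and 89.12 (3.46-fold lower). The others were Ears2 (151.61 and 65.38), the amidotransferase subunit Qrsl1 (346.13 and 157.92) and Cars2 (122.64 and 56.95), whose second probe sets had log2 ratios of -0.01, -0.03 and 0.36, at signals near the floor (that of Ears2 was under it in KO). The second probe set of Yars2 was at -0.71. Gars and Kars of this list also serve the cytosol.

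Genes that replicate or transcribe mitochondrial DNA or act on its RNA were below 0 in 15 of 19 cases (78.9%), beside 53.7% of all measured genes. The median of this list was -0.26. Polg2, the accessory subunit of the DNA polymerase, read 200.02 in WT and 80.56 in KO (-1.31), and the topoisomerase Top1mt 132.28 and 55.61 (-1.25), whereas Tfb2m, a transcription initiation factor, read 104.22 and 223.21 (1.10). Regulators of mitochondrial biogenesis had a median of -0.04 over 12 genes, which turned to 0.04 with quantile scaling and 0.05 with loess scaling or the mean over probe sets. Among them the coactivators Ppargc1a (168.81 and 51.42, -1.72; other probe sets -1.47, -0.48 and 0.10) and Ppargc1b (417.48 and 207.37, -1.01) were lower in KO, Myc was higher (239.33 and 533.09, 1.16), and Nrf1 (288.21 and 291.54) and Gabpa (300.6 and 284.2) were close to equal.

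Cytosolic ribosomal proteins, which serve the ribosome outside mitochondria, were below 0 in 22 of 42 measured genes (44 listed). That is 52.4%, beside 53.7% of all measured genes. The median was -0.02, and 0.06 with quantile scaling. Rps6 (492.14 in WT, 153.05 in KO) was the one at least 2-fold lower and Rpl27a (186.12 and 897.32) the one higher. Both probe sets were dim for this list. Most of the list read far above the members' signal range of 210.0 to 772.2, and the part of signal level in its median was not tested. The probe set of ND5, a complex I subunit encoded by mitochondrial DNA and translated by the mitochondrial ribosome, read 574.15 in WT and 4413.11 in KO (7.69-fold higher), opposite in direction to most members.

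**Figure D5:**
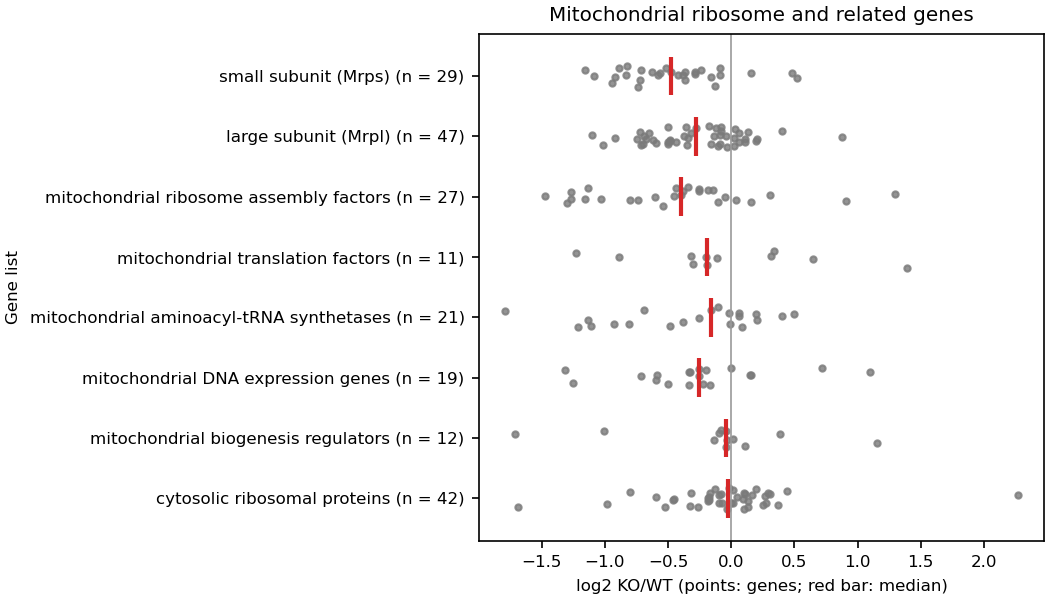
Log2 ratio of KO over WT of the brightest probe set for the Mrps and Mrpl genes and for 6 related gene lists; each point is a gene, the red bar is the median of the list and the grey line marks 0. Medians run from -0.47 (small subunit) and -0.39 (assembly factors) to -0.02 (cytosolic ribosomal proteins).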

How the data were processed

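Biotin-labelled cRNA from 1 WT and 1 Foxj3 KO myoblast culture was hybridised to 1 Affymetrix array each, per the labels' protocols. The deposited value table gives, for every probe set of an array, a signal intensity on a linear scale; the algorithm and the scaling the authors used are not given in the sources used here, and both can alter small ratios. Values were used as deposited, those under the floor of 47.04 were set to it, and log2 ratios of KO over WT were taken (Python 3.11.15, numpy 2.4.6, pandas 2.3.3, with statsmodels 0.14.6 for loess). Platform symbols were updated through Entrez identifiers in a RefSeq table (34741 of 34945 probe sets with 1 symbol; 932 had several and 9160 were not listed). A gene counted as measured if its brightest probe set, by mean log2 signal, was over the floor on at least 1 array; a ratio with 1 array under it is a bound. No p-value can be had from 1 array per group, and 2-fold was the fixed limit. The calculation was run on simulated data, where it gave back large ratios planted in bright genes. That run does not bear on ratios as small as the members' medians.

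Members, lists and alternatives were chosen with earlier results of these data known. Named members were those 2-fold different, the 5 highest and 5 lowest of each subunit, members with 3 or more measured probe sets, and a set of members known from structure or disease; others, including Mrps6, Mrps10, Mrps18c, Mrps24, Mrps35, Mrpl27 and the neighbours, were singled out after their values were seen. For other lists, the named genes were those 2-fold different, and some were singled out after their values were seen. The classes by bacterial descent, from knowledge of the ribosome's structures, and the 1.5-fold reading were added after the values were seen.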

Additional observations from a re-analysis of the deposited data

How the results depend on the processing

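The median log2 ratio stayed below 0 under each of 16 alternatives, from -0.33 to -0.13 for the large and from -0.52 to -0.31 for the small subunit, and the difference between subunits ranged from 0.06 to 0.30. The lower end of that difference came from the 36 genes with at least 2 measured probe sets, whichever of the first 2 was used, a setting chosen after seeing the data. Counts at 2-fold were less steady. The 2 large subunit genes at least 2-fold lower became 0 with quantile scaling, loess scaling, a pseudocount, the mean over probe sets, without _s_at and _x_at probe sets and at 3-fold, and 12 at 1.5-fold. The 2 small subunit genes became 1 with quantile or loess scaling, 0 with a pseudocount and at 3-fold, and 11 at 1.5-fold. Genes at least 2-fold higher, 0 in both subunits, became 4 large and 1 small with each probe set on its own, and 1 large at 1.5-fold. Counts below 0 ran from 33 to 38 of 47 and from 24 to 26 of 29 over the scalings. Mrpl48 reversed to 0.034 with the mean over probe sets, where its dimmest probe set enters. Of 245 values of 41 named members, 231 kept their sign and 14, in 9 members, did not: besides Mrpl48 and those named next, Mrpl21 (0.05), Mrpl38 (0.11), Mrps14 (-0.10) and Mrps2 (0.46) with the mean over probe sets, Mrpl2 (-0.04) with quantile scaling, and Mrps2 and Mrps16 with quantile and loess scaling. By more than the probe-set spread, 5 moved, in Mrpl15 (0.34) and Mrps5 (-0.19) with the mean over probe sets, and in Mrpl15 (0.27), Mrpl19 (0.27) and Mrpl38 (0.29) without _s_at and _x_at probe sets. Mrps12 has no value without _s_at probe sets, since its only one ends so. No paired analysis was possible because each group holds 1 array. Depth has no meaning for arrays; 17 of 156 probe sets were under the floor, and the number of arrays limits the precision.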
